A study of Canis lupus familiaris with 28 samples.

Results

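The VEGF and hypoxia genes described here are 10: the ligands VEGFA, VEGFB and VEGFC, the receptors FLT1, KDR and NRP1, the transcription factor subunits HIF1A and ARNT, and the regulators EGLN1 and VHL. They were chosen by name, and every array probe that carried one of those names was taken, which gave 18 of 43603 probes. Of these, 17 passed the filter on low signal, among 30202 probes of the whole array, and each of the 10 genes kept at least 1 probe. Where a gene had more than 1 probe, the probe with the highest mean signal is given first and called its brightest probe.

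RNA from the blood of 20 dogs with atopic dermatitis (AD) and 8 healthy dogs was hybridized to canine two-colour microarrays, 1 array per dog, to ask which transcripts differ in the disease. The Cy5 dye marked the dog and the Cy3 dye a common reference, a pool of RNA from other healthy dogs that was the same on all 28 arrays, and the dyes were never exchanged. The AD dogs were client-owned animals of several breeds, sampled while they showed visible skin signs and kept off anti-inflammatory drugs for some weeks before allergy testing, and the healthy dogs were blood donors. Both groups had blood counts within the reference range, and no genotype, agent or time point separated them. The labels call the material whole blood, whereas the study's text speaks of nuclear cells of peripheral blood. All 5 general leukocyte markers tested and all 6 erythroid markers tested were well above background in every dog.

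Vascular endothelial growth factors are secreted proteins that drive the growth and the leakiness of blood and lymph vessels through receptor tyrosine kinases. When oxygen is plentiful, prolyl hydroxylases mark the HIF alpha subunits and the VHL protein sends them for degradation. When oxygen is scarce, HIF1A pairs with ARNT and switches on genes that include VEGFA. In blood, VEGFA is carried by platelets and made by leukocytes, and inflamed skin is a known source of it.

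The probes on which the results turned are shown first, 5′ to 3′ as on the array. The capitals mark the longest run in which C and T alternate, a feature by which the VEGFA probe differed from the other members. For VEGFA, the 30 bases around the run in its brightest probe are given (canFam3, chr12:12224441-12224500 for the whole probe, plus strand), and the whole of its other probe, which spans chr12:12220769-12223069 in the genome and so crosses an exon boundary. KDR (chr13:47443066-47444891, minus strand, likewise across an exon boundary) and ARNT (chr17:59941626-59941685, minus strand) are given by their brightest probes. No annotation of canFam3 was used here, so the exon or untranslated region of each probe is not stated.
VEGFA brightest probe: atgtttccaaTCTCTCTCTCcctgatcggt
VEGFA other probe: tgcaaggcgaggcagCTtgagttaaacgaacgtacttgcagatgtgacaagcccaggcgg
KDR brightest probe: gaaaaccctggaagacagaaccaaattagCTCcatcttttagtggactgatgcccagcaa
ARNT brightest probe: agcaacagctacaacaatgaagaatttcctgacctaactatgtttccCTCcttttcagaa

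The values below are log2 ratios of the dog over the reference, with each array centred on its median. A value of 0 is thus the typical ratio of dog to reference on that array, not a level of expression. The AD dogs' arrays were less sensitive. The share of probes well above background in the dog channel was 51.7 to 87.4% (median 79.8%) in AD dogs and 84.3 to 90.3% (median 86.4%) in healthy dogs, and it was lowest, 51.7 to 63.2%, in the 6 AD dogs of 1 scan day. Each of the 8 slides and 5 scan days held dogs of 1 group, so slide, scan day and disease cannot be told apart. The labels do not tie any array to a repeat sample, and p-values measure the spread between dogs.

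No member gene passed the test. Of the 30202 probes tested with limma, 0 (0%) were called at a Benjamini-Hochberg adjusted p of at most 0.085, the study's own limit, or 0.05. The smallest adjusted p of any probe was 0.490. The study itself reported changed transcripts at that limit, VEGFA among them, from a smaller set of transcripts left by its own filter. At an unadjusted p under 0.05, 3 of the 17 member probes were lower in AD dogs (VEGFA, KDR and ARNT, each the brightest probe of its gene), against a background of 4.46% of all probes, and 0 were higher, against 1.65% (6.12% in either direction). Altogether 11 of the 17 member probes had a fold change below 0, against 52.1% of all probes. The median log2 fold change of the 17 was -0.04, and they ranged from -0.61 to 0.41. Here and below, fewer cells of a type and less RNA per cell cannot be told apart.

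**Figure D1:**
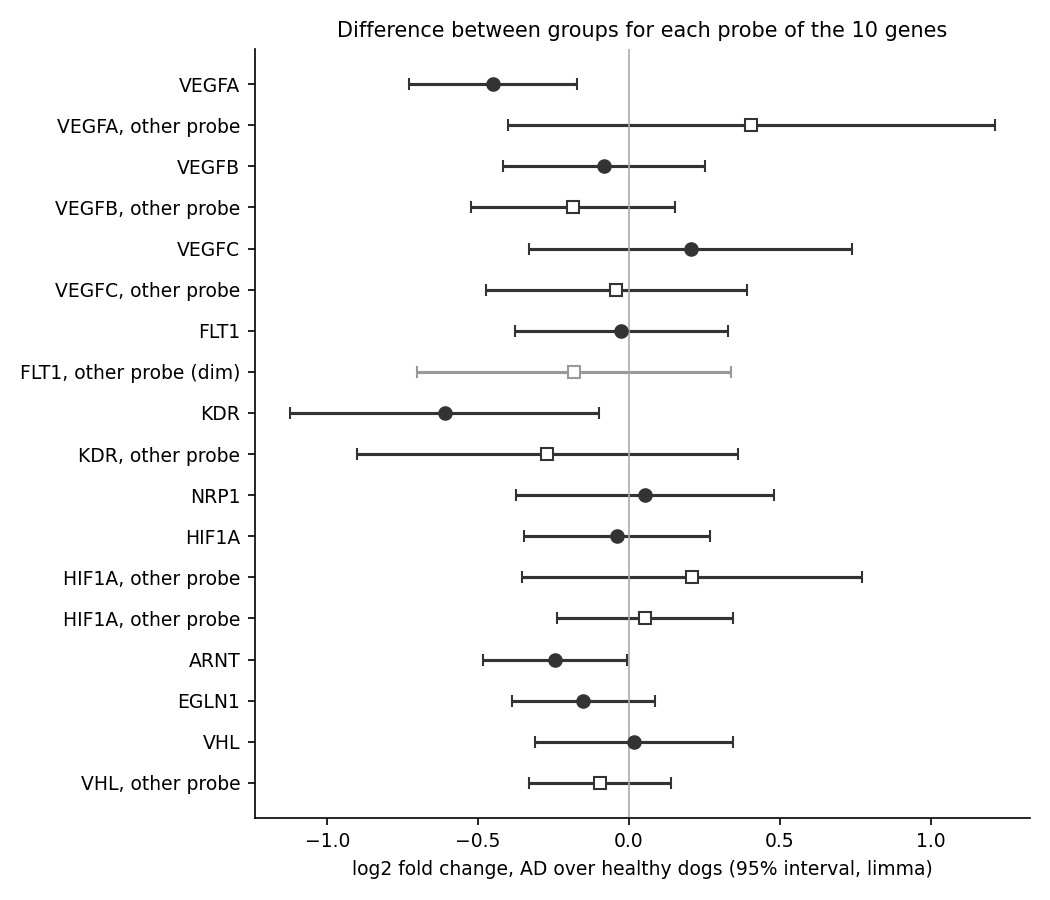
The log2 fold change, AD over healthy, of each member probe with its 95% confidence interval from limma, for 20 AD and 8 healthy dogs, with filled circles for the brightest probe of a gene, open squares for its other probes and grey for the FLT1 probe left out by the filter. The intervals of the brightest VEGFA (-0.73 to -0.17), KDR (-1.12 to -0.10) and ARNT (-0.48 to -0.01) probes lie below 0, and the other VEGFA probe lies on the opposite side at 0.41.

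Among the ligands, VEGFA, the main growth factor of vascular endothelium, was lower in AD dogs by its brightest probe and not by its other probe. The brightest probe read from -1.05 to 0.20 in AD dogs, with a median of -0.16, and from -0.33 to 0.53 in healthy dogs, with a median of 0.18. The lowest AD values were those of dogs 8 (-1.05), 14 (-0.92) and 12 (-0.77), and the lowest healthy value was that of dog 1. The groups overlapped, but 19 of 20 AD dogs were below the healthy mean and 6 were below every healthy dog. The means were -0.29 ± 0.34 (SD, n = 20) and 0.16 ± 0.25 (SD, n = 8), respectively. The log2 fold change was -0.45 (SE 0.137, limma p = 0.00239, adjusted p = 0.490). An exact permutation test over the dogs gave p = 0.00206 for this probe on its own (two-sided). The probe was well above background in all 28 dogs and saturated in 0. On the dog channel alone, without dividing by the reference, the log2 difference was -0.55 and passed the limit (limma adjusted p = 0.0332), as it did with arrays weighted by quality (-0.45, adjusted p = 0.0556). The dog channel alone called 1251 of the 30202 probes (4.14%) and array weights 849 (2.81%), while the reference channel alone, with the same RNA on every array, called 11807 (39.1%). For the brightest VEGFA probe itself the reference channel differed by -0.03 (limma adjusted p = 0.868). VEGFA is also in the study's own list of changed genes from these same arrays, so its place here is not independent evidence.

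The other VEGFA probe gave a different picture. It read from -0.56 to 4.99 in AD dogs, with a median of 0.06, and from -0.42 to 0.37 in healthy dogs, with a median of 0.05. The top value belonged to AD dog 20, and the next, 1.61, to AD dog 15, both from the scan day of lowest detection, so that the medians of the groups were close while the spread of the AD dogs was wide. The log2 fold change was 0.41 (SE 0.395, limma adjusted p = 0.876), with an interval from -0.40 to 1.21. Without AD dog 20 the difference was 0.16 (SE 0.156). This probe was well above background in 14 of 20 AD dogs and 8 of 8 healthy dogs, and its reference channel on 21 of 28 arrays. It was dim, with median signals of 92 in AD dogs, 108 in healthy dogs and 80 in the reference on AD arrays. The brightest probe had a median of 28072 in AD dogs. The signals of AD dogs 20 and 15 were 318 and 30, so their high ratios rest on values near the floor. The 2 VEGFA probes did not move together across AD dogs (Pearson's r = -0.0718), and their r across healthy dogs was -0.428. Spearman's rho was -0.156 (AD) and -0.357 (healthy). Dropping the 2 dogs farthest from the median of the brightest probe, which kept AD dog 20, gave r = -0.175 (AD) and 0.563 (healthy). The sign of the healthy value thus rested on 2 dogs. The AD minus healthy difference of the brightest probe was lower than that of the other by 0.86 on the log2 scale, which did not pass an adjusted limit (permutation p = 0.0596, adjusted over 6 genes 0.179).

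The brightest VEGFA probe shared its pattern across dogs with probes of unrelated genes that hold the same kind of sequence. Its alternating C and T run is 10 bases long, whereas the longest run in any other member probe is 5 bases. Counting runs of 8 bases or more, a limit chosen after the values were seen, 154 other tested probes (0.510% of all) hold one, and 0 of 52 pathway genes and 0 of 53 cell type marker genes do. In AD dogs the median correlation of these 154 probes with VEGFA was 0.893 (quartiles 0.663 to 0.951), against 0.0225 over all tested probes. In healthy dogs it was 0.864 (quartiles 0.726 to 0.925), against -0.0274. Their median log2 fold change was -0.46 (quartiles -0.50 to -0.36), against -0.01 over all, and 121 of them (78.6%) were lower in AD dogs at an unadjusted p under 0.05, against the background of 4.46%, while 0 were higher. These figures describe the array and carry no test, since the run was looked for because of VEGFA.

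The unrelated probes that followed VEGFA most closely are shown with their runs in capitals. They are the named genes, with a symbol in RefSeq, whose brightest probes had the highest correlation with VEGFA in AD dogs, and 6 names without such a symbol ranked among them. RPE65 is a retinal enzyme, ALKBH4 a demethylase, TTF2 a transcription termination factor, CA14 a carbonic anhydrase, and OR16G03 an olfactory receptor.
RPE65: cCTCTCTCTCTaatcaactgacaacttaat
ALKBH4: ctcctgcagaTCTCTCTCTCctttcagggg
TTF2: gttatgctaaTCTCTCTCTCggctggaggt
CA14: cagctccaagaaactcCTCTCTCTCTCTCT
OR16G03: acagtggtctgCTCTCTCTCatctgtttct
All of them hold such a run of 9 to 14 bases. Their r with VEGFA was 0.98 in AD dogs and 0.93 to 0.99 in healthy dogs. ALKBH4, TTF2 and CA14 are in the study's list as well. Of the 20 probes with the highest r in AD dogs, 18 hold a run, as do 35 of the first 50 and 51 of the first 100.

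The likeness rose with the length of the run. The median r with VEGFA in AD dogs was -0.0568 for the 6707 probes whose longest run was 2 bases, 0.0685 for the 6690 probes with 4, 0.221 for the 611 with 6, 0.751 for the 86 with 8 and 0.951 for the 44 with 10 or more. The median log2 fold change over the same lengths was -0.01, -0.01, -0.08, -0.41 and -0.47, and all 44 probes of the longest class were lower in AD dogs at an unadjusted p under 0.05. Probes with the same run on the opposite strand, alternating G and A over at least 8 bases, did not show it. Those 127 probes had a median r with VEGFA of -0.0914 across AD dogs and -0.359 across healthy dogs, a median log2 fold change of -0.01, and 7 (5.51%) lower at an unadjusted p under 0.05. Signal rose along with the C and T run, with medians in AD dogs of 241, 335, 386, 810 and 173128 over the same lengths. The median was 241 for the G and A probes and 297 over all tested probes. Run length and brightness were not separated here.

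**Figure D2:**
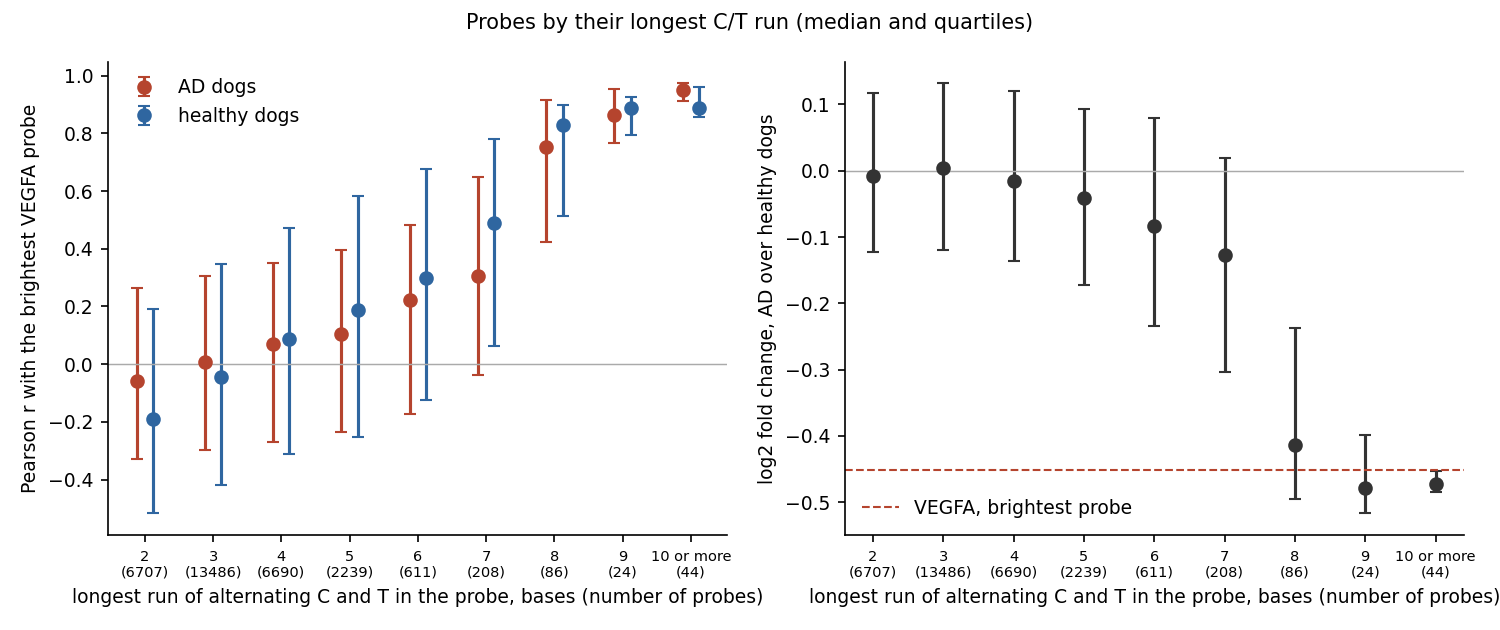
The median and quartiles, over the probes tested, of the correlation with the brightest VEGFA probe in AD (red) and healthy dogs (blue) and of the log2 fold change, with a dashed line at VEGFA, by the longest alternating C and T run in the probe in bases. In AD dogs the median r stays at or below 0.31 up to 7 bases and reaches 0.751 at 8 and 0.951 at 10 or more, while the median fold change falls to about -0.4 or lower from 8 bases on.

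Dog by dog, the brightest VEGFA probe could hardly be told from the median of the other 154 run probes. That median was -0.30 ± 0.35 in AD dogs (SD, n = 20, from -0.99 to 0.07) and 0.13 ± 0.25 in healthy dogs (SD, n = 8, from -0.40 to 0.49), and 20 of 20 AD dogs were below the healthy mean. It correlated with the VEGFA probe at r = 0.974 in AD dogs (Spearman's rho 0.955) and 0.987 in healthy dogs (rho 0.976). Without the 2 dogs farthest from the median VEGFA value these r were 0.963 and 0.936, and with the slide means removed 0.974 and 0.988. With the other VEGFA probe the run median had r = -0.0828 (AD) and -0.544 (healthy). Taken relative to the run median, VEGFA read 0.000625 ± 0.0785 in AD dogs (from -0.09 to 0.19) and 0.0311 ± 0.0401 in healthy dogs (from -0.03 to 0.09), a difference of -0.03 (SE 0.0226) in place of -0.45. Whether the VEGFA transcript or the run sets the reading of this probe was not tested and cannot be told apart from these arrays.

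**Figure D3:**
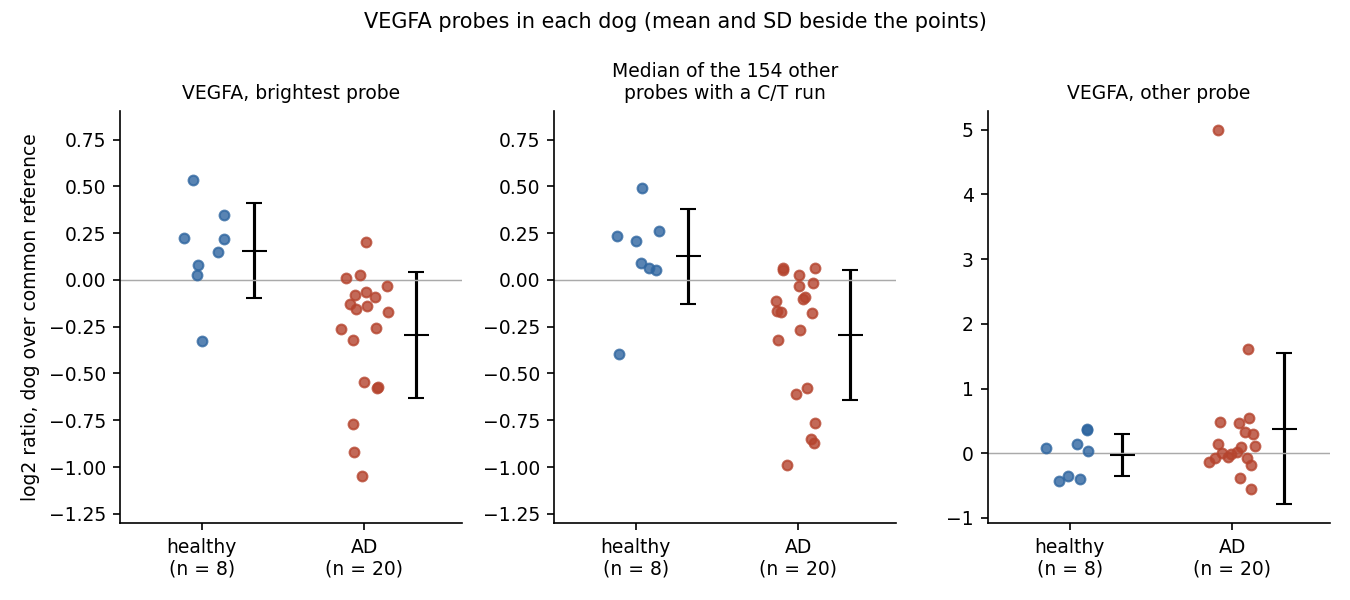
Log2 ratio of each dog over the reference for the brightest VEGFA probe, the median of 154 other probes with an alternating C and T run, and the other VEGFA probe on its own scale, with mean and SD beside the points for 20 AD and 8 healthy dogs. The first panels share their pattern, with means of -0.29 and -0.30 in AD dogs, while the third has no downward shift and a single AD dog at 4.99.

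**Figure D4:**
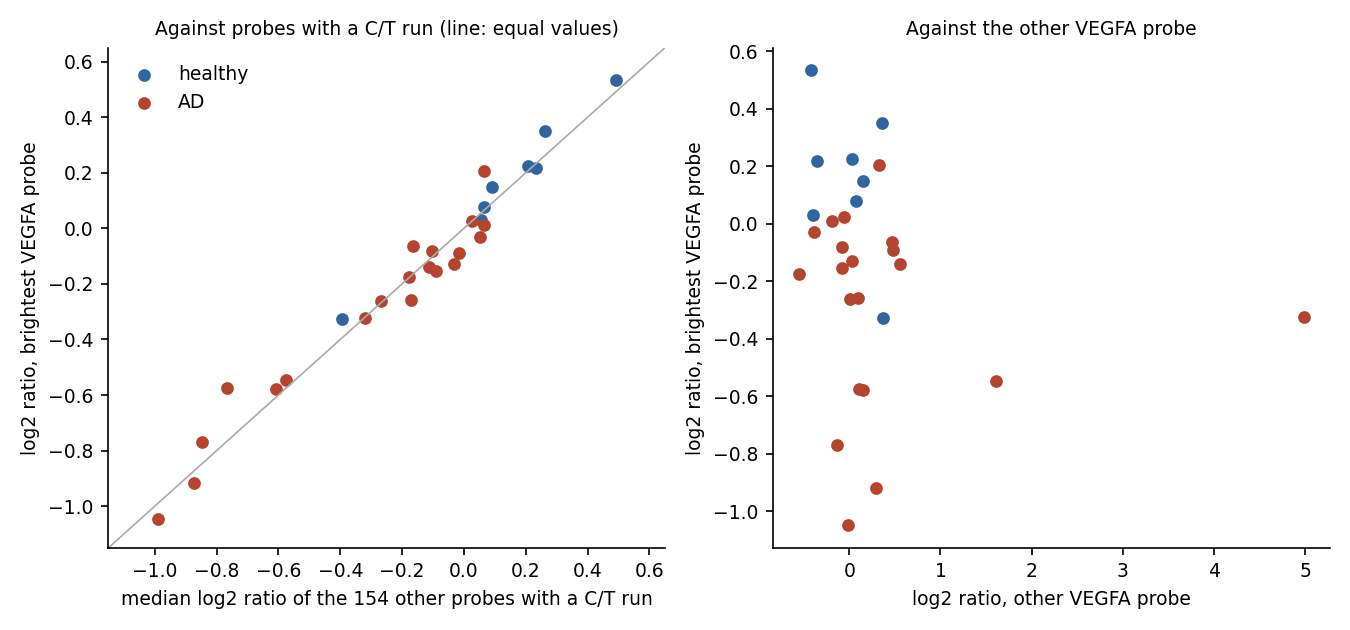
Each dog's log2 ratio for the brightest VEGFA probe against the median of the 154 run probes, with the line of equality, and against the other VEGFA probe. The dogs lie along the line with the run median (r = 0.974 in AD and 0.987 in healthy dogs). They show no such relation with the other VEGFA probe (r = -0.0718 and -0.428), although the healthy r turns to 0.563 when 2 dogs are dropped.

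The remaining ligands did not differ beyond the spread of the dogs. VEGFB, which acts through FLT1, read from -1.50 to 0.34 in AD dogs (median -0.33) and from -0.59 to -0.06 in healthy dogs (median -0.30). Every healthy dog was thus below 0, and the groups overlapped along the whole healthy range. VEGFB had a median signal of 4003 in AD and 4334 in healthy dogs, against 297 and 307 over all tested probes. Below 0 here is relative to the reference pool, and VEGFB was not a dim gene. Its log2 fold change was -0.08 (SE 0.164, limma adjusted p = 0.938), and -0.18 (SE 0.166) by its other probe. VEGFC, the growth factor of lymphatic vessels, read from -1.71 to 1.57 in AD dogs (median -0.29) and from -1.63 to 0.44 in healthy dogs (median -0.39), with a fold change of 0.21 (SE 0.262, adjusted p = 0.902), and -0.04 (SE 0.212) by its other probe. Neither gene separated the groups, and the probes of each correlated across dogs. The r between a gene's probes was 0.802 in AD and 0.886 in healthy dogs for VEGFB (permutation p adjusted over 18 such correlations 0.000270 and, exact, 0.0119). For VEGFC it was 0.912 and 0.977 (0.000180 and, exact, 0.000893). The AD minus healthy differences of the VEGFC probes were 0.25 apart (exact permutation p = 0.0400, adjusted over 6 genes 0.179). The longest C and T runs in their brightest probes were 4 and 5 bases.

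Of the receptors, KDR, the principal signalling receptor for VEGFA, had the lowest fold change of the member probes. Its brightest probe read from -2.49 to 0.47 in AD dogs, with a median of -0.49, and from -0.63 to 1.21 in healthy dogs, with a median of -0.13. The groups overlapped over most of the healthy range, with 18 of 20 AD dogs below the healthy mean and 7 below every healthy dog. The log2 fold change was -0.61 (SE 0.251, limma p = 0.0209, adjusted p = 0.643). By the other KDR probe it was -0.27 (SE 0.310, p = 0.389), although the probes moved together across dogs (r = 0.686 in AD and 0.866 in healthy dogs). The value moved with the slides. The 6 AD dogs of the scan day with the lowest detection had a mean of -1.07, and those of 1 slide among them -1.61. Without that scan day the fold change was -0.41 (p = 0.0700). Leaving out 1 of the healthy dogs' slides gave -0.38 (p = 0.245) and the other -0.85 (p = 0.0199). On the dog channel alone the difference was -0.31 (p = 0.177), and with another background correction and dye normalization (normexp and loess) it was -0.29. The reference channel of this probe, which holds the same RNA on all arrays, differed between the groups by 0.16 (limma adjusted p = 0.0328).

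KDR is an endothelial gene, and the markers of endothelial cells stood as follows beside it. Of 8 listed, 6 were tested, 3 of them well above background in all 28 dogs. Of the 6, 5 had a fold change below 0 (median -0.09), against 52.1% of all probes. At an unadjusted p under 0.05 there were 0, against 6.12% of all probes. Their mean log2 ratio ran from -0.16 to 0.40 in AD dogs and from -0.04 to 0.30 in healthy dogs. VWF and PECAM1, both abundant in platelets too, read -0.06 and -0.12, and CDH5, the endothelial cadherin, -0.22. ESAM, an endothelial adhesion molecule, went the other way at 0.34 (p = 0.0700), with 16 of 20 AD dogs above the healthy mean. The part of such cells in the KDR values was not tested.

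FLT1, a high-affinity receptor that also occurs as a soluble trap for VEGFA, read from -0.87 to 1.35 in AD dogs (median 0.14) and from -0.20 to 0.39 in healthy dogs (median 0.14). The medians were the same and the healthy values lay inside the AD range, with a log2 fold change of -0.03 (SE 0.173). Its brightest probe was well above background in 16 of 20 AD dogs. Its other probe, in 7 of 20, did not pass the filter and read -0.18 in a fit without it. NRP1, a co-receptor for several VEGF ligands, read from -0.90 to 1.26 in AD dogs (median -0.09) and from -0.56 to 0.83 in healthy dogs (median -0.11), a fold change of 0.05 (SE 0.209). The sign of both turned under some of the other ways of processing.

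For HIF1A, the oxygen-regulated subunit of the hypoxia-inducible factor, no log2 ratio differed between the groups by more than its error. Its brightest probe read from -0.80 to 0.59 in AD dogs (median -0.28) and from -0.38 to 0.34 in healthy dogs (median -0.24), with a log2 fold change of -0.04 (SE 0.151). The 95% interval, -0.35 to 0.27, bounds a change at this level of the transcript. The other HIF1A probes gave 0.21 (SE 0.276) and 0.05 (SE 0.143). On the dog channel alone the former was at 1.01 (SE 0.316, limma adjusted p = 0.0819), past the limit of 0.085, and the brightest probe at -0.000098 (SE 0.153). The reference channel of the probe at 1.01, with the same RNA on all arrays, was also higher on the AD arrays, by 0.72 (limma adjusted p = 0.00296). HIF1A is controlled mainly through the stability of its protein, which arrays do not measure.

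ARNT, the constant partner of HIF1A, was the third member below an unadjusted p of 0.05. It read from -0.65 to 0.16 in AD dogs (median -0.22) and from -0.54 to 0.70 in healthy dogs (median 0.02). Only 1 AD dog was below every healthy dog, and 16 of 20 were below the healthy mean. The log2 fold change was -0.24 (SE 0.117, limma p = 0.0441, adjusted p = 0.797). It rested on 1 slide of healthy dogs, since without it the fold change was -0.06 (p = 0.678), and -0.43 (p = 0.00670) without the other healthy slide. ARNT had 1 probe, so no second reading of it was at hand.

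EGLN1, the prolyl hydroxylase that marks HIF1A in the presence of oxygen, read from -0.45 to 0.48 in AD dogs (median -0.09) and from -0.21 to 0.50 in healthy dogs (median 0.07). Most AD dogs, 15 of 20, were below the healthy mean, but the fold change of -0.15 (SE 0.116, limma adjusted p = 0.867) did not pass. Its reference channel was higher on the AD arrays by 0.23 (adjusted p = 0.00461), and on the dog channel alone the difference was 0.07 in the other direction. VHL, the recognition subunit of the ligase that removes hydroxylated HIF, read from -0.59 to 1.08 in AD dogs (median 0.22) and from -0.03 to 0.62 in healthy dogs (median 0.23), a fold change of 0.02 (SE 0.161) with medians nearly equal. Its other probe gave -0.10 (SE 0.116).

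The VHL probes are shown because they cover nearly the same stretch (canFam3, chr20:8206858-8206917 for the brightest probe and chr20:8206880-8206939 for the other, minus strand) and yet differed in how they ranked the dogs. They share 38 bases with 1 mismatch, printed in capitals, A6G, counted from 1 at the 5′ end of the brightest probe, with the base of the other probe first.
VHL other probe: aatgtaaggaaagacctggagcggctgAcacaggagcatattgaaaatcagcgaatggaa
VHL brightest probe: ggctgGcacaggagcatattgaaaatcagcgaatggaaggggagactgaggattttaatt
Their r was 0.575 in AD dogs (permutation p adjusted over 18 correlations 0.0144) and 0.183 in healthy dogs (exact permutation, adjusted p 0.713). The reference channel of the brightest VHL probe differed between AD and healthy arrays by -0.58 (limma adjusted p = 0.0149).

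The members did not follow VEGFA together. Of the 9 other genes, 6 had an r above 0 with the brightest VEGFA probe in AD dogs and 6 in healthy dogs, from -0.355 to 0.513 and from -0.716 to 0.820. In 18 permutation tests, exact for healthy dogs, 0 passed an adjusted p of 0.05, and the smallest adjusted p was 0.172. The highest in AD dogs were VEGFB (r = 0.513, rho 0.552, p = 0.0209), EGLN1 (r = 0.447, rho 0.481, p = 0.0479) and NRP1 (r = 0.446, rho 0.266, p = 0.0465). The r of VEGFB fell to 0.362 without the 2 dogs farthest from the median VEGFA value. It fell to 0.377 with slide means removed, while that of EGLN1 was 0.454 and 0.550. In healthy dogs ARNT had r = 0.820 (rho 0.429, exact permutation p = 0.0318), which rested on 2 dogs, since without them it was -0.451. With slide means removed the ARNT value was 0.894 (rho 0.881, exact permutation p = 0.00370, unadjusted), and its lowest adjusted p under any alternative was 0.0665. KDR had r = 0.585 in healthy dogs (rho 0.786), 0.733 with slide means removed, and -0.303 in AD dogs. FLT1 had r = -0.716 in healthy dogs (rho -0.762, exact permutation p = 0.0374), while in AD dogs its r was -0.0853. The healthy value was -0.646 without the 2 dogs farthest from the median VEGFA value. All of these used the VEGFA probe with the C and T run. With the other VEGFA probe the AD values of Pearson's r were 0.0727 for VEGFB, 0.0427 for EGLN1 and 0.0514 for NRP1. That probe was well above background in 14 of 20 AD dogs and had 1 dog at 4.99. These r values were not computed without that dog, so they cannot tell whether the correlations hold with a second VEGFA reading. Among all 45 pairs of members, 23 had an r above 0 in AD dogs (median 0.0248) and 21 in healthy dogs (median -0.141).

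**Figure D5:**
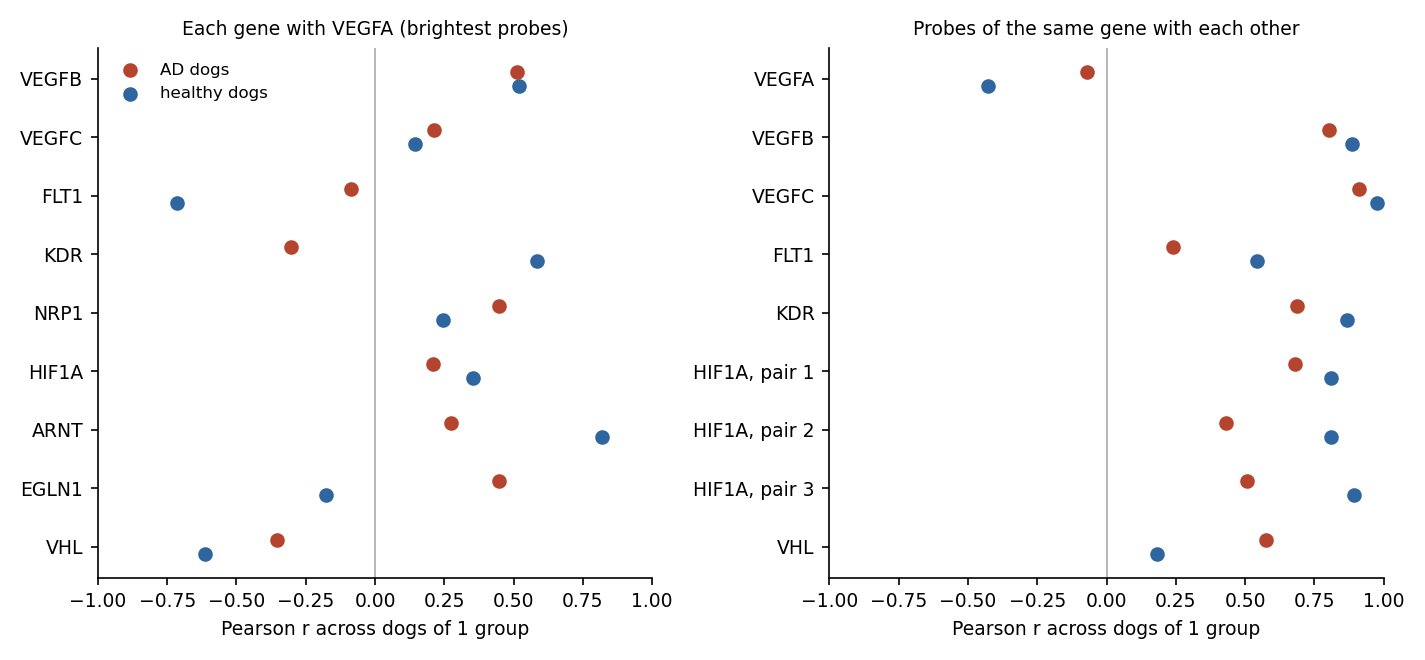
Pearson's r across 20 AD dogs (red) and 8 healthy dogs (blue) of each member gene with the brightest VEGFA probe, and of the probes of a gene with each other. VEGFB, VEGFC and KDR probes lie at 0.686 or more in both groups and HIF1A pairs between 0.431 and 0.892. FLT1 probes lie at 0.239 in AD and 0.543 in healthy dogs, and VHL probes at 0.575 and 0.183. The VEGFA probes sit at -0.0718 and -0.428, and the healthy value is 0.563 without 2 dogs.

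Other genes of the pathway came from a list of 66 other names, of which 59 were on the array and 52 were tested. The tested genes lay above 0 more often than below it, but not without 1 slide of healthy dogs. Of the 52, 0 were called by limma, 1 was lower and 3 were higher in AD dogs at an unadjusted p under 0.05, against backgrounds of 4.46% and 1.65%, and 16 (30.8%) had a fold change below 0, against 52.1% of all probes. The median was 0.06, against -0.01 over all probes. Without that slide 26 of the 52 were below 0, with a median of 0.0019 and 0 at an unadjusted p under 0.05. All probes shifted as well, to a median of -0.04, so the pathway median stayed above theirs. DDIT4, a hypoxia and stress target that restrains mTOR, was at 0.56 (SE 0.186, p = 0.00474, adjusted p = 0.490), with 19 of 20 AD dogs above the healthy mean, and at 0.27 (p = 0.262) without the same slide. HIF1AN, the asparaginyl hydroxylase that dampens HIF activity, was at 0.34 (SE 0.138, p = 0.0205, adjusted p = 0.638), with 16 of 20 above. It was at 0.0651 (p = 0.238) with normexp and loess, 0.13 (p = 0.579) on the dog channel alone and 0.10 (p = 0.349) with the dog number as a block. CXCR4, a chemokine receptor under HIF control, was at 0.39 (SE 0.181, p = 0.0373, adjusted p = 0.758), with 17 of 20 above, but at 0.0358 (p = 0.861) without that slide, 0.23 (p = 0.149) with array weights and 0.20 (p = 0.314) with the dog number as a block. ADM, the vasodilator adrenomedullin, was at -0.58 (SE 0.212, p = 0.00998, adjusted p = 0.530), with 19 of 20 below. It was at -0.13 (p = 0.0278) with normexp and loess and at -0.50 (p = 0.0960) without the same slide.

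By role, 18 glycolysis targets of HIF had a median of 0.03 with 8 below 0. The 20 other HIF targets had a median of 0.11 with 6 below 0, and 10 other HIF subunits and regulators a median of 0.09 with 0 below 0. Each gene was counted by its brightest probe. Among the 10, another SIAH1 probe was at -0.25 and another CREBBP probe at -0.07. The remaining tested probes of the 10 were above 0, with the other HIF1AN probe at 0.07. The 4 other VEGF ligands and receptors had a median of -0.02 with 2 below 0. These counts stand against 52.1% of all probes below 0. They include the healthy slide on which the count for the whole list depended. On the dog channel alone DDIT4 passed the limit (0.74, adjusted p = 0.0451), and with array weights both DDIT4 (0.53, 0.0732) and ADM (-0.54, 0.0707) did. Each of these settings called 3 of the 52 pathway genes, not the same 3 and in part genes not named here, against 4.14% and 2.81% of all probes, respectively. EPAS1 and EPO, also well-known members of this pathway, were below the filter on signal.

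Markers of blood and endothelial cells did not pass the test either, with 0 of 53 at an unadjusted p under 0.05, against 6.12% of all probes. The 6 platelet markers, of interest because platelets carry VEGFA, had a median log2 fold change of -0.24, and 5 of them were below 0, against 52.1% of all probes. Their mean log2 ratio ran from -1.09 to 0.67 in AD dogs and from -0.78 to 0.85 in healthy dogs, so the groups overlapped throughout. The median was 0.18 for 7 neutrophil markers and 0.42 for 6 erythroid markers. Their mean log2 ratios ran from -0.38 to 1.23 in AD and -0.39 to 0.43 in healthy dogs for neutrophils, and from -1.74 to 1.47 and -1.52 to 1.29 for erythroid cells. The part of these cells in the VEGFA values was not tested.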

How the data were processed

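The authors hybridized each dog (Cy5) with 1 reference pool (Cy3) on Agilent 4x44K arrays. The deposited scanner files give, per the file headers, background-subtracted and dye-normalized intensity values per spot from Feature Extraction 10.10.1.1 (the submitters' processing notes name 10.7.3.1) with canFam3 positions. The deposited series value table holds log10 ratios of dog over reference, used as an alternative and lacking 10 rows of the scanner files; 0 columns were without a sample. Here log2(Cy5/Cy3) was computed from the processed signals, control spots and outlier marks were left out, replicate spots were averaged, and each array was centred on its median. Probes well above background on some array, with a median signal over 100 in either channel of either group and a value in a share of at least 0.5 of the arrays of each group, were tested with limma 3.58.1 (lmFit, eBayes, Benjamini-Hochberg) in R 4.3.3. Permutation tests (numpy 2.4.6) were two-sided, exact for differences between groups and for correlations in healthy dogs, and with 100000 resamples for correlations in AD dogs. The fit was tested on simulated data.

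All member genes were named, as were pathway genes at an unadjusted p under 0.05 and the 5 gene symbols most like VEGFA, passing over names without a RefSeq symbol. Members and lists were chosen with earlier results of these data known. The number of arrays limits the precision, and depth does not apply. Alternatives covered the filter, centring, background correction, channels, blocks, weights and slides left out.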

Additional observations from a re-analysis of the deposited data

How the results depend on the processing

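The VEGFA difference of -0.45 stayed below 0 under all 23 alternatives run, from -0.55 to -0.02, and passed the limit on the dog channel alone (-0.55) and with array weights (-0.45). It was -0.0233 with the mean of both VEGFA probes and, in an alternative added after the data were seen, -0.0305 relative to the other run probes. Leaving out each slide gave -0.49 to -0.41. Member probes called rose from 0 to 2 on the dog channel alone and 1 with array weights, and pathway genes called from 0 to 3 in each, against 4.14% and 2.81% of all probes. Pairs of probes of a gene whose AD minus healthy differences disagreed rose from 0 to 3 on the dog channel alone (VEGFA, VEGFB and HIF1A) and 1, VEGFA, without the scan day of lowest detection. Leaving out each slide kept these counts at 0.

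Several member differences near 0 changed sign. With normexp and loess FLT1 was 0.0129, HIF1A 0.0200, VHL -0.0530 and the other VEGFA probe -0.0266. On the dog channel alone EGLN1 was 0.0682 and VHL -0.57. With array weights FLT1 was 0.0144 and NRP1 -0.0456. Without the scan day of lowest detection FLT1 was 0.0064 and NRP1 -0.0213. Centred on all probes, VHL was -0.0153. Leaving out each slide gave -0.16 to 0.57 for VEGFC, -0.18 to 0.29 for NRP1, -0.21 to 0.13 for HIF1A and -0.0288 to 0.13 for VHL. In healthy dogs ARNT with VEGFA had r = -0.63 by the other VEGFA probe and -0.45 without 2 dogs. Correlations past the limit stayed at 0, but healthy dogs without a slide number 4, too few for a value. The cause of these changes was not tested.

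Dog numbers are shared by the groups but only name dogs: the deviations of same-numbered dogs correlated at -0.36 to 0.42 over 30115 probes, above 0.1 in 4 of 8. With the dog number as a replicate block VEGFA was -0.52 (adjusted p = 0.173), VEGFC -0.0633 and FLT1 0.0344, and no call changed. Weak detection in AD dogs limits FLT1 and the other VEGFA probe.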
